A study of Mus musculus with 9 samples.

Results

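The p53 and cell cycle arrest set holds 10 genes: Cdkn1a, Cdkn1b, Cdkn1c, Cdkn2a, Cdkn2b, Trp53, Mdm2, Ccng1, Gadd45a and Gadd45b. They were chosen by symbol, with earlier results of these data known. Each matched a single row among the 55536 genes counted in every library, and all 10 passed the filter on low counts. The RNA came from mouse quadriceps after volumetric muscle loss, the surgical removal of a piece of muscle. There were 5 libraries labelled Il17ra-/-, a knockout of a receptor subunit for interleukin-17 cytokines, and 4 labelled wild type. Both groups were C57BL/6 mice with a labelled age of 6 weeks. On material and time the labels are at odds: the characteristics give saline and 1 week from surgery to harvest, and the protocol for extraction gives PCL and 6 weeks. Neither pair can be preferred from the labels. The labels give neither the construct of the Il17ra allele nor the cells it affects, and no control for it other than the libraries labelled wild type. The design text speaks of 3 animals per genotype, and no label ties a library to an animal or a day, so p-values measure the spread between these libraries.

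p53, encoded by Trp53, is a transcription factor that is stabilised by DNA damage and other stress and switches on genes that halt the cell cycle or start cell death. Mdm2 is both its target and the ubiquitin ligase that degrades it. Inhibitors of cyclin-dependent kinases (CDKs) stop cells before DNA replication, and come as the CIP/KIP family (Cdkn1a, Cdkn1b, Cdkn1c) and the INK4 family (Cdkn2a, Cdkn2b). Cdkn1a and Cdkn2a are widely used as markers of senescence, a lasting arrest in which cells secrete inflammatory factors. The GADD45 proteins bind CDK1 and other partners and are induced by damage, cytokines and stress.

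Total counts were 41.6 ± 4.52 M in the libraries labelled Il17ra-/- (SD, n = 5) and 35.3 ± 2.75 M in those labelled wild type (SD, n = 4). Genes with a count above 0 numbered 18248 in Il17ra-/- replicate 1 and 19258 to 20694 in the others of its group. They numbered 17256 in wild-type replicate 2 and 20229 to 20945 in the others labelled wild type. Il17ra itself was higher in the libraries labelled Il17ra-/-, at 181 to 284 read counts per 1 M counts after TMM scaling (CPM), against 75.9 to 119 CPM in those labelled wild type (log2 fold change 1.11, SE 0.17, edgeR adjusted p = 0.00208). A loss of the whole transcript would give the opposite, so directions are stated by the labels on the libraries. All 9 muscle fibre markers passed the filter on low counts. They summed to 3144 to 4168 CPM in those labelled Il17ra-/- and 1062 to 2726 CPM in those labelled wild type. The 7 fibroblast markers summed to far more, 39440 to 53610 CPM in those labelled Il17ra-/- and 46770 to 51330 CPM in those labelled wild type. The share of the RNA from each cell type was not tested. Ptprc, the pan-leukocyte marker CD45, stood at 0 to 0.461 CPM in those labelled Il17ra-/- and at 0 to 0.279 CPM in those labelled wild type. Of all 9, wild-type replicate 2 stood alone at one end of the first principal component, at −66.2, with the remaining libraries at −7.66 to 27.5. Log2 fold changes reported below, outside the cell type markers, that moved by over 1.5 times on leaving it out are given with and without it.

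Cdkn1a and Gadd45b fell, and 0 of the 10 genes rose, in the libraries labelled Il17ra-/-. The test was edgeR's quasi-likelihood test over 16039 genes, with a call wherever the p adjusted by Benjamini-Hochberg was under 0.05. Among all tested genes 3.06% were called, 1.71% lower and 1.35% higher, so the 2 falls among 10 stand beside a background of 1.71%. Because the genes were chosen with earlier results of these data known, their counts beside the background are a description. At an unadjusted p under 0.05, 4 of the 10 were lower and 0 higher, beside 16.4% of all tested genes, 8.27% lower and 8.13% higher. DESeq2 called 3 of the 10 lower and 0 higher, beside 3.14% lower and 3.25% higher of all tested genes, and limma-voom 2 lower and 0 higher, beside 1.72% lower and 1.39% higher. For 3 of the 10 genes no library of one group fell within the range of the other, all of them lower and 0 higher. Over all tested genes 9.18% had groups that did not overlap, 4.56% lower and 4.63% higher. The log2 fold change was negative for 6 of the 10 genes and for 50.3% of all tested genes. The median log2 fold change of the 10 was −0.21, against −0.0027 over all tested genes. In bulk libraries, fewer cells of a type and less RNA per cell cannot be told apart.

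**Figure D1:**
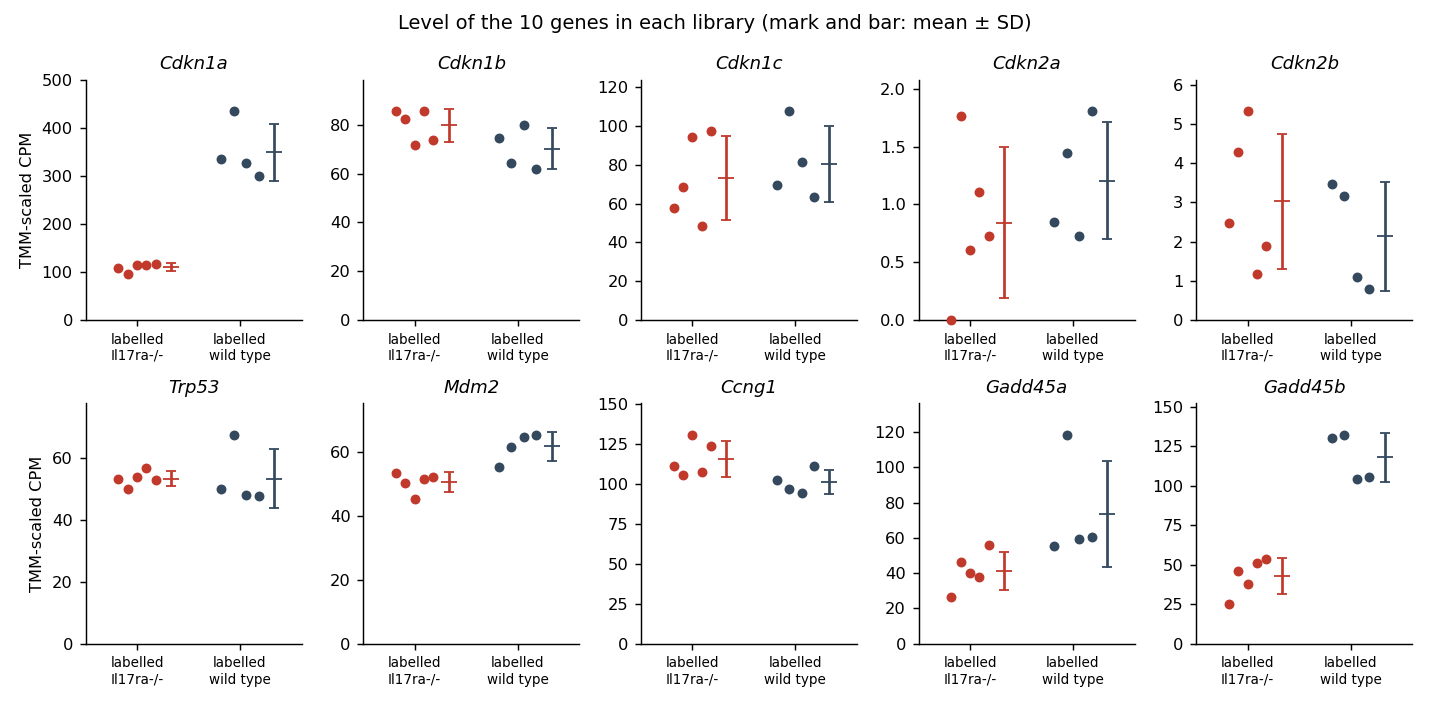
TMM-scaled CPM (vertical axis, from 0) of each of the 10 genes in the 5 libraries labelled Il17ra-/- (left) and the 4 labelled wild type (right), with each point a library and the mark and bar the mean ± SD. Cdkn1a does not exceed 116 CPM in the first group and starts at 300.1 CPM in the second, while the groups of Trp53 share a mean close to 53.5 CPM.

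Cdkn1a encodes p21, the CIP/KIP inhibitor that carries out much of the arrest ordered by p53 and is also switched on by other stress and differentiation signals. Its level was 109, 96.3, 115, 116 and 116 CPM in the libraries labelled Il17ra-/-, against 335, 435, 327 and 300.1 CPM in those labelled wild type. Every library labelled Il17ra-/- lay far below every library labelled wild type, and wild-type replicate 2 was the highest. The mean was 110.4 ± 8.44 CPM in those labelled Il17ra-/- (SD, n = 5) and 349 ± 59.3 CPM in those labelled wild type (SD, n = 4), a ratio of 0.316 (log2 fold change −1.66, SE 0.12, edgeR adjusted p = 2.16e-05). Only 1 of the 16039 tested genes had a smaller p, and 35 genes, Cdkn1a included, were called lower with at least as large a fall. Behind each value stood 4263 to 5342 counts in the libraries labelled Il17ra-/- and 10460 to 13274 in those labelled wild type. Over the 19 alternatives the log2 fold change ran from −1.72 to −1.53 and the call was kept in all of them.

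Cdkn1a lies on the plus strand of chromosome 17 from 29090976 to 29100727 (GRCm38, GENCODE M21), with 3553 bp of exon. An antisense gene model, AC167363.2, shares 273 bp or 7.68% of this exon length, and read pairs that overlap exons of both are counted for neither; that model itself held 61 to 166 counts per library. RefSeq (GRCm38.p6) lists a pair of start sites for Cdkn1a, and the bases before each are printed because the gene carries the largest fall of the set. In the upstream one, chr17:29090729-29090975 on the plus strand, capitals mark the matches to the consensus half-site of p53. In the downstream one, chr17:29093519-29093768 on the plus strand, they mark the GC box GGGCGG. Bases that the annotation places in an exon were left out of the printed sequences, here and for Gadd45b.
Cdkn1a, upstream start: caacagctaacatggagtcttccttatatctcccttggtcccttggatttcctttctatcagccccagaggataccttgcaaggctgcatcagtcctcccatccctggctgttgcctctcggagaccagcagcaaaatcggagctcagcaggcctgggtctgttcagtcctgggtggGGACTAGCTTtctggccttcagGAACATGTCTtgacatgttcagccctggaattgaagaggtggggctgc
Cdkn1a, downstream start: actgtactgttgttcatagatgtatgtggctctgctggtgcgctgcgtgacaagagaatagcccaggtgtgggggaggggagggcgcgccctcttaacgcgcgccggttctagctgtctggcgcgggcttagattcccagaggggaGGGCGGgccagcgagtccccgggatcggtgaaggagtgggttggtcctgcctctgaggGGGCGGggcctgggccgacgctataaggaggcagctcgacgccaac
The half-site matches span −73 to −64 and −51 to −42 from the upstream start. Both strands of the 250 bases before 32851 RefSeq starts were searched for 9 motifs. The p53 half-site was present in 7.13% of these windows. Among the 9 member genes with a listed start, 5 had it in a window: Cdkn1a, Trp53, Mdm2, Ccng1 and Gadd45a. GGGCGG was present in 32.7% of all windows and in a window of 6 member genes. The CRE TGACGTCA was present in 1.55% of all windows and in that of Cdkn2b. The 9 genes had 11 windows, so these counts by gene are not the same measure as shares of windows. The AP-1 site TGANTCA (6.75% of windows), the NF-kB site (3.9%) and the CArG box (1.47%) had no match in the windows of the 9 genes. A match is a description of letters and no evidence of binding.

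Neither of the other CIP/KIP genes passed the test. Cdkn1b encodes p27, which holds resting cells out of the cycle. It stood at 85.6, 82.2, 71.6, 85.6 and 73.5 CPM in the libraries labelled Il17ra-/-, against 74.5, 64.5, 79.7 and 61.7 CPM in those labelled wild type. These ranges overlapped (log2 fold change 0.18, SE 0.11, edgeR adjusted p = 0.438). Cdkn1b lies on the plus strand of chromosome 6 from 134920401 to 134925513, and its start is 14.5 Mb from that of Il17ra. Cdkn1c encodes p57, an imprinted inhibitor active in development and in quiescent stem cells. It varied widely within both groups, from 48.7 to 97.3 CPM in the libraries labelled Il17ra-/- and from 63.3 to 108 CPM in those labelled wild type (log2 fold change −0.13, SE 0.21, edgeR adjusted p = 0.799). Without wild-type replicate 2 its difference was 0.039. An antisense model, Gm44732, overlaps 30.7% of the exon length of Cdkn1c and held 0 to 5 counts per library. Cdkn1c lies on the minus strand of chromosome 7 from 143458339 to 143461050.

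Because a ratio of 2 genes in a library does not depend on how libraries are scaled, Cdkn1a was also set against Cdkn1b. The log2 ratio of their counts was 0.34, 0.23, 0.69, 0.43 and 0.66 in the libraries labelled Il17ra-/-, against 2.17, 2.75, 2.04 and 2.28 in those labelled wild type. Cdkn1a was the more counted of the pair in every library, by a margin that did not overlap between groups. The means differed by −1.84 (two-sided exact permutation p = 0.0159, the smallest this design can give, and 0.0476 after adjustment over the 3 ratios tested). Cdkn1a was known from earlier results of these data, and the ratio uses the counts that gave its fall. This p-value is therefore a description and no separate support. Per kilobase of exon, Cdkn1a made up 33.9 to 43.2% of the summed CIP/KIP level in the libraries labelled Il17ra-/- and 61.5 to 65.4% in those labelled wild type.

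**Figure D2:**
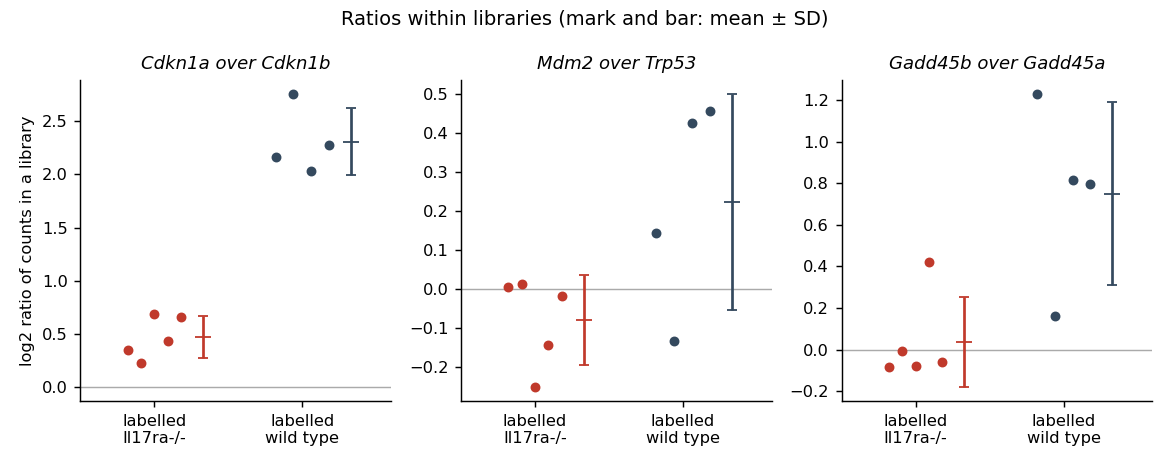
Log2 ratio of the counts of 2 genes within each library (vertical axis, not from 0) for Cdkn1a over Cdkn1b, Mdm2 over Trp53 and Gadd45b over Gadd45a, with the libraries labelled Il17ra-/- left of those labelled wild type and the mean ± SD beside the points. The groups are apart for Cdkn1a over Cdkn1b, with 0.69 at most in the first and 2.04 at least in the second, and overlap for both other ratios.

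The INK4 inhibitors block CDK4 and CDK6 and were the scarcest of the set. Cdkn2a, whose count joins the transcripts of p16INK4a and p19ARF, stood at 0, 1.77, 0.604, 1.11 and 0.731 CPM in the libraries labelled Il17ra-/-, against 0.849, 1.44, 0.727 and 1.81 CPM in those labelled wild type. The groups overlapped (log2 fold change −0.51, SE 0.87, edgeR adjusted p = 0.817), and the log2 fold change ran from −0.98 without Il17ra-/- replicate 2 to −0.19 without Il17ra-/- replicate 1, and was −1.38 with limma-voom. In Il17ra-/- replicate 1 none of 39.9 M counts fell on Cdkn2a, which allows a level of up to 0.0753 CPM by counting error alone, and the other 8 libraries held 26 to 83 counts. Cdkn2b, which encodes p15, stood at 2.47, 4.28, 5.33, 1.17 and 1.89 CPM in the libraries labelled Il17ra-/-, against 3.48, 3.15, 1.09 and 0.803 CPM in those labelled wild type (log2 fold change 0.51, SE 0.54, edgeR adjusted p = 0.689). Leaving out 1 library moved it between 0.20, without Il17ra-/- replicate 3, and 0.86, without wild-type replicate 1. Its values were widely spread within each group, and with these SEs neither gene allowed a modest difference to be detected. Cdkn2a and Cdkn2b are neighbours on the minus strand of chromosome 4, from 89274471 to 89294653 and from 89306299 to 89311039.

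Trp53 did not differ detectably between the groups. It stood at 53.2, 50.02, 54.05, 56.9 and 53.03 CPM in the libraries labelled Il17ra-/-, against 50.2, 67.6, 48.2 and 47.7 CPM in those labelled wild type. The libraries labelled Il17ra-/- sat within the range of the others, and wild-type replicate 2 alone set the upper end of that range. The log2 fold change was 0.0009 (SE 0.12, edgeR adjusted p = 0.999), and 0.14 without wild-type replicate 2. Mdm2 stood at 53.4, 50.4, 45.4, 51.6 and 52.3 CPM in the libraries labelled Il17ra-/-, against 55.4, 61.7, 64.7 and 65.4 CPM in those labelled wild type. Its groups did not overlap, but the difference did not pass over all genes (log2 fold change −0.29, SE 0.10, unadjusted p = 0.0119, edgeR adjusted p = 0.158). The log2 ratio of Mdm2 to Trp53 was −0.079 ± 0.11 (SD, n = 5) in the libraries labelled Il17ra-/- and 0.22 ± 0.28 (SD, n = 4) in those labelled wild type (exact permutation p = 0.0794). Without wild-type replicate 2 the difference in this ratio was −0.42, against −0.30 with it, at an exact permutation p = 0.0357, the smallest that 5 against 3 libraries allow. Trp53 lies on the plus strand of chromosome 11 from 69580359 to 69591873, and Mdm2 on the minus strand of chromosome 10 from 117688875 to 117710758.

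Ccng1, cyclin G1, is a direct target of p53 that recruits a phosphatase to Mdm2. It stood at 111, 106, 131, 107 and 123 CPM in the libraries labelled Il17ra-/-, against 103, 96.7, 94.6 and 111 CPM in those labelled wild type. The groups overlapped, and the fitted difference was opposite in sign to that of Cdkn1a (log2 fold change 0.19, SE 0.10, edgeR adjusted p = 0.389). Its log2 fold change stayed between 0.14 and 0.26 over the 19 alternatives and passed in none. Ccng1 lies on the minus strand of chromosome 11 from 40748552 to 40755311.

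The GADD45 genes encode small stress proteins that act on CDK1, on the kinase MAP3K4 and in DNA demethylation. Gadd45b, which cytokines and NF-kB signalling induce in many cells, stood at 25.2, 45.8, 37.8, 50.9 and 53.5 CPM in the libraries labelled Il17ra-/-, against 130.1, 132, 104 and 105 CPM in those labelled wild type. The groups did not overlap, and Il17ra-/- replicate 1 was the lowest of all. The log2 fold change was −1.47 (SE 0.19, edgeR adjusted p = 5.95e-04). It ran from −1.60 to −1.27 over the 19 alternatives and was called in all of them. Gadd45b lies on the plus strand of chromosome 10 from 80930073 to 80932204, and Gadd45a on the minus strand of chromosome 6 from 67035096 to 67037457. Gadd45a, a p53 target that is also induced without p53, stood at 26.7, 46.1, 39.9, 38.0 and 55.8 CPM in the libraries labelled Il17ra-/-, against 55.6, 118, 59.3 and 60.7 CPM in those labelled wild type. The top of the first group just overlapped the bottom of the second. Its difference did not pass (log2 fold change −0.83, SE 0.24, edgeR adjusted p = 0.0823). Without wild-type replicate 2, which stood well above the other 3, the log2 fold change was −0.50 (adjusted p = 0.158). Gadd45a passed with DESeq2 (adjusted p = 0.0126) and without a filter on low counts (adjusted p = 0.0178), and its adjusted p ran from 0.0126 to 0.183 over the 19 alternatives. The model E230016M11Rik on the other strand overlaps 19.1% of its exon length and held 49 to 120 counts per library.

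The log2 ratio of Gadd45b to Gadd45a was −0.085, −0.0080, −0.079, 0.42 and −0.062 in the libraries labelled Il17ra-/-, against 1.23, 0.16, 0.81 and 0.80 in those labelled wild type. Wild-type replicate 2 and Il17ra-/- replicate 4 brought the groups to overlap. The means differed by −0.71 (exact permutation p = 0.0317, adjusted over the 3 ratios p = 0.0476), and the p was between 0.0286 and 0.0714 when any 1 library was left out. This ratio too uses the counts of a called gene and is no separate support. The bases before the RefSeq start of Gadd45b, chr10:80929841-80930072 on the plus strand of GRCm38.p6, are shown because it is the other gene that fell. Capitals mark the E-box CACGTG, the GC box on the minus strand, the CCAAT boxes and the TATA box TATAAA.
Gadd45b: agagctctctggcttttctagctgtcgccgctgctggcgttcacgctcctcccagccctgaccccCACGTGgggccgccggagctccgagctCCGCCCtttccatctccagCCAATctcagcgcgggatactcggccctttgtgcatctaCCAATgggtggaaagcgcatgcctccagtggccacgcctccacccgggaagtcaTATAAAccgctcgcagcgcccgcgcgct
Here the E-box spans −185 to −180 and the TATA box −46 to −41 from the start. CACGTG was present in 6.02% of all windows, TATAAA in 12.4% and CCAAT in 33.8%. The searched window held no match to the p53 half-site.

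**Figure D3:**
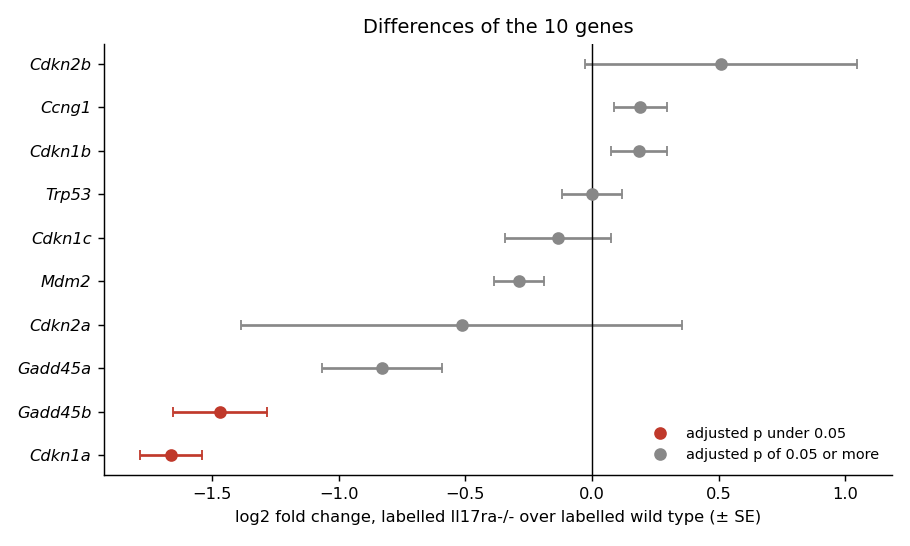
Log2 fold change of each of the 10 genes, libraries labelled Il17ra-/- over libraries labelled wild type (horizontal axis), with bars of 1 SE, and red where the edgeR adjusted p was under 0.05. Cdkn1a at −1.66 and Gadd45b at −1.47 lie apart from the other 8, which run from −0.83 to 0.51.

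The 10 genes were also put in order of level within each group. Levels of different genes are compared here per kilobase of exon (RPKM). In the libraries labelled Il17ra-/- Cdkn1c (36.0 ± 10.7), Ccng1 (32.9 ± 3.14), Cdkn1a (31.1 ± 2.38), Gadd45b (26.8 ± 7.22), Gadd45a (23.4 ± 6.08) and Cdkn1b (17.5 ± 1.47 RPKM) followed each other, and no neighbours among these differed beyond their SDs. In the libraries labelled wild type Cdkn1a (98.3 ± 16.7 RPKM) came first, with an interval that met that of Gadd45b (74.2 ± 9.63 RPKM). These SDs are between libraries, and within each library labelled wild type Cdkn1a ranked first and Gadd45b second. Gadd45a (41.7 ± 17.01), Cdkn1c (39.5 ± 9.64) and Ccng1 (28.8 ± 2.10 RPKM) came next and overlapped in turn. Trp53 was at 13.2 RPKM in both groups. Mdm2 stood at 9.96 ± 0.613 RPKM, below Trp53 by more than their SDs, in the libraries labelled Il17ra-/-, and at 12.2 ± 0.904 RPKM, within them, in those labelled wild type. Cdkn2b and Cdkn2a were last in both groups, at 2.18 and 0.719 RPKM in the libraries labelled Il17ra-/- and at 1.53 and 1.03 RPKM in those labelled wild type.

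Other genes of these pathways were read from 13 lists with 130 genes outside the set, of which 126 were tested. Of these, 9 fell and 0 rose by edgeR, with 22 lower and 8 higher at an unadjusted p under 0.05. DESeq2 called 14 lower and 0 higher, and limma-voom 9 lower and 0 higher. The shares over all tested genes were 1.71% lower and 1.35% higher by edgeR, 8.27% and 8.13% at the unadjusted p, and 3.14% and 3.25% by DESeq2. The lists too were chosen with earlier results of these data known, so their counts are a description. Among the arrest and survival targets of p53, 2 of 14 tested genes fell. Plk3, a polo-like kinase of the stress response, was at 12.7 to 23.1 CPM in the libraries labelled Il17ra-/- and 31.2 to 40.5 CPM in those labelled wild type (log2 fold change −0.93, SE 0.17, edgeR adjusted p = 0.00752). Plk2, its paralogue, averaged 45.5 ± 9.26 CPM in the libraries labelled Il17ra-/- and 75.7 ± 13.3 CPM in those labelled wild type. Its groups just overlapped (−0.73, SE 0.16, edgeR adjusted p = 0.0254), and its call was lost on leaving out any of wild-type replicates 1, 3 and 4 or Il17ra-/- replicates 1 to 4 (adjusted p 0.05 to 0.0832, edgeR). Tigar, a regulator of glycolysis, was at 0.50 on the log2 scale (adjusted p = 0.204) and Gdf15, a secreted stress factor, at −1.40 (adjusted p = 0.206). The list of 17 with its 3 set members had a median log2 fold change of −0.27.

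The targets of p53 in cell death and DNA repair did not pass in edgeR. Of 13 apoptosis genes 3 were lower and 1 higher at an unadjusted p under 0.05, DESeq2 called 2 lower, limma-voom 0, and the median log2 fold change was −0.0078. Bax, the pore-forming killer protein, was at 22.5 to 30.97 CPM in the libraries labelled Il17ra-/- and 31.5 to 48.9 CPM in those labelled wild type (−0.55, adjusted p = 0.0767). Pmaip1, which encodes the BH3-only protein Noxa, averaged 1.39 ± 1.03 CPM in those labelled Il17ra-/- and 5.71 ± 2.88 CPM in those labelled wild type (−2.03, adjusted p = 0.142). For neither Bax nor Pmaip1 did the groups overlap. The death domain receptor Eda2r had a value of the opposite sign (0.61, adjusted p = 0.15). Of 6 repair genes 1 was lower and 1 higher at an unadjusted p under 0.05, and DESeq2 called 1 lower. The smallest p belonged to Pcna, the sliding clamp of replication (−0.51, adjusted p = 0.0711), followed by Rrm2b (0.45, adjusted p = 0.302, and 0.24 without wild-type replicate 2). None of 15 other p53 regulators passed in edgeR, DESeq2 or limma-voom, with 1 lower and 1 higher at an unadjusted p under 0.05. They included the kinase Hipk2 (0.77, adjusted p = 0.166), the ligase Cop1 (−0.24, adjusted p = 0.281), the phosphatase Ppm1d (0.38, adjusted p = 0.357) and Rpl11 (−0.31, adjusted p = 0.415, and −0.048 without wild-type replicate 2). Trp63 was the only other p53 family gene tested (0.50, adjusted p = 0.471).

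**Figure D4:**
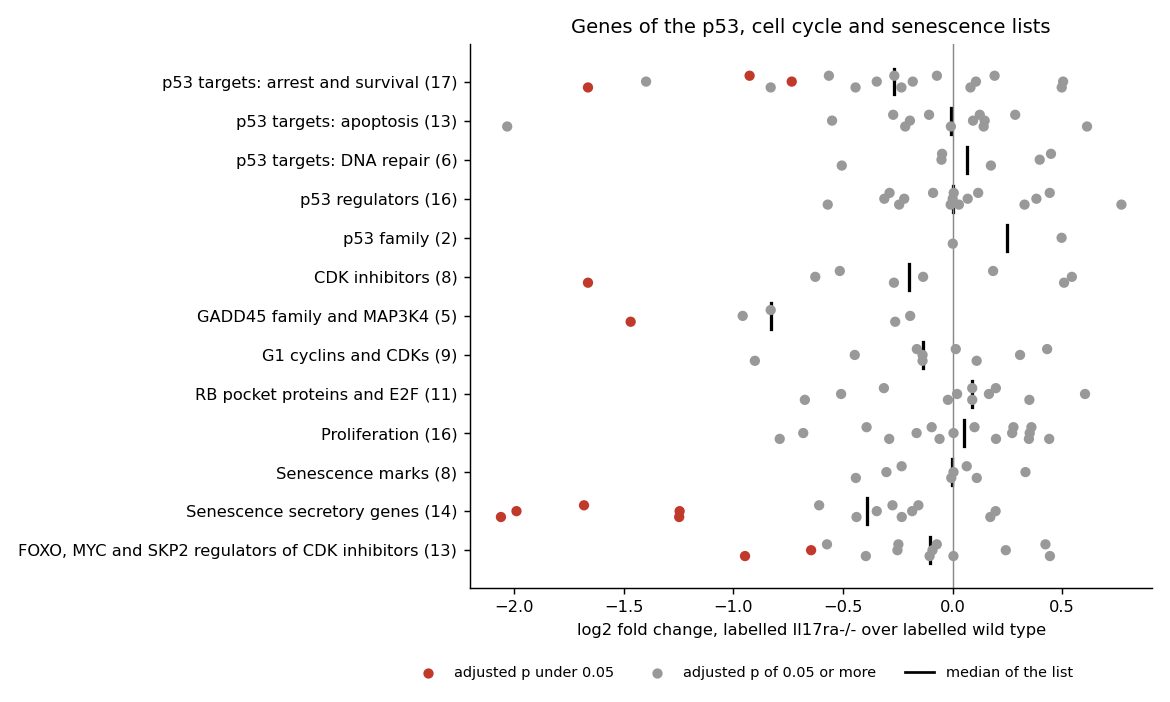
Log2 fold change (horizontal axis) of each tested gene in 13 lists, set members included, with the number tested in brackets, red where the edgeR adjusted p was under 0.05 and a black line at each list's median. Called genes lie left of 0 and belong to the arrest targets, CDK inhibitors, GADD45 genes, secretory genes and regulators of CDK inhibitors.

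None of the genes that the arrest machinery acts on was called by edgeR. None of 9 G1 cyclins and CDKs reached an unadjusted p under 0.05 or was called by DESeq2 or limma-voom. Their smallest p belonged to the E-type cyclins, Ccne1 (−0.90, adjusted p = 0.487, and −0.57 without wild-type replicate 2) and Ccne2 (0.43, adjusted p = 0.525). Of 16 proliferation genes 1 was higher and 0 lower at an unadjusted p under 0.05, with 0 calls by edgeR, DESeq2 or limma-voom and a median log2 fold change of 0.052. It was Mcm6, a subunit of the replicative helicase, at 31.5 ± 3.66 CPM in those labelled Il17ra-/- and 24.7 ± 5.35 CPM in those labelled wild type (0.35, adjusted p = 0.260). Of 11 pocket protein and E2F genes 3 were lower at an unadjusted p under 0.05 and DESeq2 called 1. The 3 were E2f1 (−0.67, adjusted p = 0.0962), E2f5 (−0.51, adjusted p = 0.134) and E2f4 (−0.31, adjusted p = 0.212, and −0.18 without wild-type replicate 2). The remaining CDK inhibitors had 0 calls by each tool and 1 higher at an unadjusted p under 0.05. This was Cdkn2c, the INK4 gene of p18, at 10.98 ± 2.30 CPM in those labelled Il17ra-/- and 7.53 ± 0.423 CPM in those labelled wild type, with groups that did not overlap (0.54, adjusted p = 0.145). Of 3 genes tested around the GADD45 proteins, 2 were lower at an unadjusted p under 0.05, with 0 calls by each tool. Gadd45g, the third GADD45 gene, averaged 104 ± 26.6 CPM in the libraries labelled Il17ra-/- and 202 ± 93.6 CPM in those labelled wild type (−0.96, SE 0.25, adjusted p = 0.0577). Without wild-type replicate 2 its log2 fold change was −0.58 (adjusted p = 0.0855). It was called under 4 of 19 alternatives, among them no filter on low counts (adjusted p = 0.00639) and leaving out wild-type replicate 4 or Il17ra-/- replicate 5. Map3k4, the kinase that GADD45 proteins activate, averaged 32.1 ± 2.74 CPM in those labelled Il17ra-/- and 38.5 ± 0.999 CPM in those labelled wild type (−0.26, adjusted p = 0.229). Besides Cdkn2c, groups did not overlap for Ccne2, which was higher, and for E2f5, E2f4 and Map3k4, which were lower. Over all tested genes this held for 9.18%.

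Of 14 tested genes of the senescence secretory list, 5 fell and 0 rose by edgeR, DESeq2 and limma-voom alike, and 5 were lower and 0 higher at an unadjusted p under 0.05. Cxcl1, a chemokine gene that draws neutrophils, was at 162, 293, 190.2, 229 and 309.6 CPM in the libraries labelled Il17ra-/-, against 416, 872, 447 and 509 CPM in those labelled wild type. The groups did not overlap, and wild-type replicate 2 was the highest (log2 fold change −1.24, SE 0.23, edgeR adjusted p = 0.00907). Also among the 5 were the chemokine genes Ccl2 (−1.25) and Cxcl2 (−2.06) and, named after its values were seen, the cytokine gene Il6 (−1.68). Cxcl2 was not called under 6 of 19 alternatives (edgeR adjusted p up to 0.0714). Among them were leaving out wild-type replicate 4 or any of Il17ra-/- replicates 1 to 4 (edgeR adjusted p up to 0.0616). Il6 was not called under 8 of 19 alternatives, among them leaving out wild-type replicate 2 (−1.18, edgeR adjusted p = 0.0821), wild-type replicate 4 or any of Il17ra-/- replicates 1 to 4. Several of these genes are also known as targets of interleukin-17 and other inflammatory signals, and whether their fall has to do with senescence was not tested. Of 8 genes whose transcripts are used as marks of senescence, 0 reached an unadjusted p under 0.05 or a call by any of the 3 tools. The smallest p belonged to Ezh2, the H3K27 methyltransferase (−0.44, adjusted p = 0.310), and Macroh2a1, a variant histone gene (−0.23, adjusted p = 0.312). Next came Glb1, which encodes the lysosomal beta-galactosidase (−0.30, adjusted p = 0.321, and −0.11 without wild-type replicate 2).

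Among 13 regulators of CDK inhibitor genes, 2 fell and 0 rose by edgeR, with 3 lower and 2 higher at an unadjusted p under 0.05, and 3 lower and 0 higher by DESeq2. Myc, a repressor of Cdkn1a, was at 156, 212, 180, 221 and 238 CPM in the libraries labelled Il17ra-/-, against 350.1, 507, 314 and 381 CPM in those labelled wild type (−0.95, SE 0.16, edgeR adjusted p = 0.00419). Klf4, a zinc finger factor that activates Cdkn1a, averaged 1409 ± 204 CPM in those labelled Il17ra-/- and 2203 ± 209 CPM in those labelled wild type (−0.65, SE 0.12, edgeR adjusted p = 0.0110). For neither gene did the groups overlap. The forkhead factor gene Foxo4 (0.44, adjusted p = 0.156) and Id3, which encodes an antagonist of bHLH factors (−0.57, adjusted p = 0.15), did not pass. Without wild-type replicate 2 the value for Id3 was −0.27.

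Over the 9 libraries, the genes nearest to Cdkn1a in pattern were Dnajb1, Irf8, Casp4, Hbegf and Pnp, out of 12113 compared. Nearness is the root mean square difference between centred log2(CPM + 0.5) values, which was 0.16 for Dnajb1, an HSP40 chaperone, and 0.20 to 0.23 for the others. Dnajb1 was at 97.1, 96.8, 92.2, 119 and 137 CPM in the libraries labelled Il17ra-/-, against 294, 400.3, 344 and 281 CPM in those labelled wild type. It peaked in wild-type replicate 2, as Cdkn1a did. Those nearest to Gadd45b were Sbno2 (0.14), Atf3 (0.15), Bcl3 (0.15), Ier5 (0.20) and Nfil3 (0.20). Atf3, a stress-induced transcription factor, was at 297, 619, 506, 669 and 840 CPM in the libraries labelled Il17ra-/-, against 1570, 2059, 1584 and 1496 CPM in those labelled wild type, with its lowest value in Il17ra-/- replicate 1, where Gadd45b was lowest too. Bcl3, a nuclear partner of NF-kB, averaged 12.6 ± 2.90 CPM in those labelled Il17ra-/- and 37.4 ± 7.11 CPM in those labelled wild type. All 10 neighbours were called lower; they were picked for likeness to a called gene, so this is a description.

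**Figure D5:**
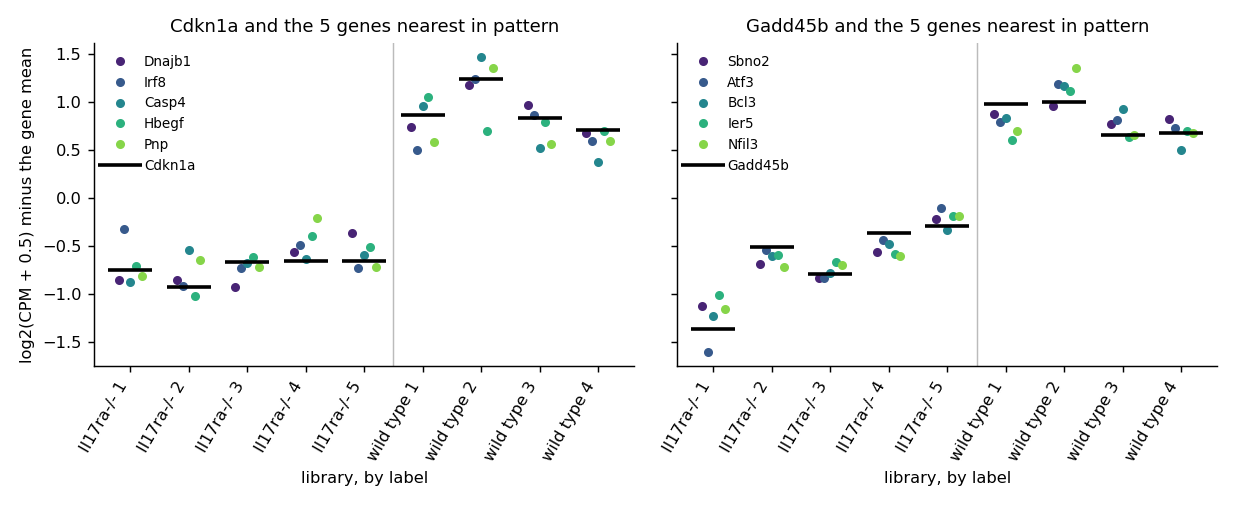
Centred log2(CPM + 0.5) (vertical axis) of Cdkn1a with its 5 nearest genes (left panel) and of Gadd45b with its own (right panel) in each library, those labelled Il17ra-/- left of those labelled wild type; black marks are the set member and dots its neighbours. Marks lie below 0 in the libraries labelled Il17ra-/- and above 0 in those labelled wild type, and the lowest marks for Gadd45b are in Il17ra-/- replicate 1.

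Markers of several cell types moved with the groups. Markers said to rise or fall were called by edgeR, beside 1.35% higher and 1.71% lower over all tested genes. DESeq2 called 5 muscle fibre, 5 mural cell, 5 satellite cell and 2 adipocyte markers higher. It called 2 fibroblast markers and 1 leukocyte and macrophage marker lower. Its shares over all tested genes were 3.25% higher and 3.14% lower. With limma-voom 6 muscle fibre, 4 mural cell, 2 satellite cell and 0 adipocyte markers were higher, and 1 fibroblast and 1 leukocyte and macrophage marker lower. Of 9 muscle fibre markers 4 rose and 0 fell, with a summed level of 3144 to 4168 CPM in the libraries labelled Il17ra-/- and 1062 to 2726 CPM in those labelled wild type. Of 6 mural cell markers 4 rose, with a sum of 1994 to 2632 CPM in those labelled Il17ra-/- and 1334 to 1583 CPM in those labelled wild type. Of 6 satellite cell markers 2 rose, with a sum of 225 to 279 CPM in those labelled Il17ra-/- and 137 to 188 CPM in those labelled wild type. The 10 leukocyte and macrophage markers summed to 9.49 to 16.6 CPM in those labelled Il17ra-/- and 19.2 to 36.4 CPM in those labelled wild type. Cd68, a lysosomal marker of macrophages, was the only one of the 6 tested that fell, and none rose. It was at 1.30 to 3.85 CPM in those labelled Il17ra-/- and 11.6 to 24.2 CPM in those labelled wild type, the only marker of the list that was lower with groups apart. The log2 fold change was positive for 4 of the 6, with a median of 0.84, among them Mrc1 with groups that did not overlap (1.30, edgeR adjusted p = 0.285). Of the 10 markers, 7, Ptprc among them, were at 0 in at least 1 library. Of 7 fibroblast markers 1 fell, and of 5 adipocyte markers 1 rose, with a sum of 27.6 to 109 CPM in those labelled Il17ra-/- and 25.1 to 64.4 CPM in those labelled wild type. No endothelial or Schwann cell marker passed in edgeR, DESeq2 or limma-voom, with 0 of 6 and 3 of 5 lower at an unadjusted p under 0.05. Endothelial markers summed to 301 to 379 CPM in those labelled Il17ra-/- and 261 to 456 CPM in those labelled wild type, and Schwann cell markers to 168 to 229 CPM in those labelled Il17ra-/- and 212 to 326 CPM in those labelled wild type. The part of these shifts in the levels of Cdkn1a and Gadd45b was not tested.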

How the data were processed

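RNA was sequenced from the 9 quadriceps samples with TruSeq v2 libraries, which do not mark the strand, per the labels' protocols. Each deposited file holds raw counts: the authors counted read pairs over the exons of GENCODE M21 genes (GRCm38) with featureCounts 1.6.0, per the file headers. The submitters' processing notes name STAR as the aligner, with a version not given in the sources used here. All 55536 gene identifiers matched GENCODE M21. Total counts ran from 31.3 to 46.4 M, and 3 counts, the limit that a count of 0 allows, corresponded to 0.0646 to 0.0959 CPM; such limits cover counting error only.

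Genes with low counts were removed with edgeR's filterByExpr, which left 16039. Libraries were scaled with TMM factors and compared with edgeR 4.0.16's quasi-likelihood test (R 4.3.3). The test was two-sided, the labelled genotype was its single term, and p-values were adjusted over all tested genes by Benjamini-Hochberg. Fold changes are labelled Il17ra-/- over labelled wild type, and their SE is the size of the log2 fold change divided by the root of F. Ratios of 2 genes used counts + 0.5 and exact permutation tests in scipy 1.17.1 over 126 splits. In simulated counts for this comparison over 15523 genes, 85.0% of genes changed 2-fold and 96.0% of those changed 4-fold were recovered, with 3 false among 184 calls. Changed genes were drawn only above the lowest mean levels. The spread of each gene followed the trend over level, and no library was made to stand apart. These shares therefore do not describe the scarcest genes, genes spread wider than the trend, or a library like wild-type replicate 2. Alternatives were other scalings, filters, DESeq2 1.42.0, limma-voom (limma 3.58.1), robust dispersion, a replicate block and leaving out libraries.

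The members and lists were chosen with earlier results of these data known, and the lists come from textbook knowledge. Named genes are the 10 members, Il17ra, up to 4 genes of each list with the smallest p, and for each called member the 5 nearest in pattern with a mean of at least 1 CPM, leaving out numbered gene models and sex-linked genes. Il6 and the cell type markers stand outside this rule. Some genes that the rule picks are not reported here.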

Additional observations from a re-analysis of the deposited data

Results flagged for a closer look

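In groups of 4 or 5 libraries, 1 value stood apart from the others by Dixon's test in 18 of 144 groups examined. Chance alone flags about 1 in 20 independent groups. These groups share the same libraries, and the nearest genes were picked for likeness to Cdkn1a or Gadd45b, so that rate is only a rough guide. Of the 18, 11 were in wild-type replicate 2. There it was the highest of its group for Trp53 at 67.6 CPM (the other 3 at 47.7 to 50.2), Gadd45a at 118 CPM (55.6 to 60.7), Cdkn2d at 26.4 CPM (8.78 to 11.3), E2f4 at 56.9 CPM (39.9 to 42.3), Foxm1 at 9.25 CPM (2.98 to 3.66) and Id3 at 622 CPM (312 to 344). The same held for Rpl11 at 323 CPM (175 to 183) and, among the genes nearest in pattern to Cdkn1a or Gadd45b, for Pnp at 297 CPM (170.4 to 174), Atf3 at 2059 CPM (1496 to 1584), Ier5 at 318 CPM (222 to 237) and Nfil3 at 248 CPM (152 to 156).

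In other libraries labelled wild type, Cop1 was low in replicate 3 at 32.4 CPM, Map3k4 was low in replicate 1 at 37.0 CPM and Mcm6 was high in replicate 4 at 32.7 CPM. Among the libraries labelled Il17ra-/-, replicate 4 was high for Il17ra at 284 CPM, for Pnp at 99.9 CPM and for the log2 ratio of Gadd45b to Gadd45a at 0.42, against −0.085 to −0.0080 in the other 4. Replicate 5 was high for Mcm3 at 17.3 CPM.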

How the results depend on the processing

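Cdkn1a and Gadd45b were called in all 19 alternatives, and 2 or 3 of the 10 genes were called in each, the third being Gadd45a. DESeq2 called 1026 genes over all genes against 491, and leaving out 1 library gave 275 to 567, with 275 without Il17ra-/- replicate 3 and 323 without Il17ra-/- replicate 1. Scaling by library totals alone moved the median log2 fold change of all genes to 0.061 and called 330 higher and 232 lower, against 217 and 274. The ratio of Mdm2 to Trp53 differed by −0.42 without wild-type replicate 2, past 0.05, and by −0.42 to −0.22 when any 1 library was left out. That of Gadd45b to Gadd45a differed by −0.91 to −0.55, and lost its call in 7 of these 9 cases, where fewer splits also raise the smallest p to 0.0286 or 0.0357.

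Some signs turned. Trp53 had −0.0074 with upper quartile scaling and with a filter of 1 CPM in 4 libraries, and ranged from −0.044 to 0.14 when 1 library was left out. Cdkn1c had 0.039, Cdkn2d 0.22 and Gadd45gip1 0.032 without wild-type replicate 2, against −0.13, −0.27 and −0.19; leave-one-out ranges were −0.25 to 0.039, −0.43 to 0.22 and −0.33 to 0.032. With wild-type replicate 2 and Il17ra-/- replicate 1 left out together, chosen after seeing the data, 524 genes and the same 2 members were called, and Cdkn1c had 0.11, Cdkn2d 0.23, Cdkn3 0.035 (against −0.63) and Gadd45gip1 0.025. Without wild-type replicate 2 alone, Cdkn3 had −0.28. The cause of these shifts was not tested.

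Replicate numbers are shared between groups, but deviations of same-numbered libraries correlated at only 0.034 to 0.081, so they were not taken as pairs; 3 of 4 libraries labelled wild type correlated best with their own number. With the replicate block 363 genes and 3 members were called, with −1.67 for Cdkn1a and −0.92 for Gadd45a (adjusted p = 0.0153).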
